A study of Mus musculus with 12 samples.

Results

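The 34 genes described here encode the mitochondrial fatty acid oxidation machinery of the liver and a set of targets of PPARα, the nuclear receptor that switches this machinery on. The rule that picks them is a list of gene names and uses no measured value, although the list was drawn up with earlier results of these data known, and all 34 were found among the 46882 gene names of the count table. RNA-seq was made from frozen liver of wild-type (WT) C57BL/6 mice and of C57BL/6 mice with the genotype A1cf -/- (KO), aged 6 to 8 weeks, with 6 biological replicates of each genotype and no treatment named in the labels. A1cf encodes an RNA-binding protein known as the complementation factor of apolipoprotein B mRNA editing. The labels do not say how the A1cf allele was made, or whether the control mice were littermates. Each library is called here by its genotype and the number in its title; the labels do not say what the numbers stand for, and they fall into the ranges 573 to 602 and 776 to 780.

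Fatty acids enter the mitochondrion as carnitine esters and are then shortened in a spiral of 4 reactions (dehydrogenation, hydration, a second dehydrogenation and thiolysis), with electrons passed on through the electron transfer flavoprotein. PPARα, bound to fatty acids and paired with the retinoid X receptor, raises the transcription of many of these enzymes in the fasted liver. It also raises the microsomal CYP4A enzymes, which oxidise the omega end of fatty acids, acyl-CoA thioesterases and the hormone FGF21. Cyp4a14, Cyp4a10, Acot1 and Fgf21 are widely used as readouts of PPARα activity in mouse liver.

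No gene of the 34 passed the test between KO and WT livers (0 of 34, where 3.82% of all tested genes were called). What the 34 genes did show was a shared difference between individual livers that ran through both genotypes. Cyp4a14 spanned 7.62-fold from its lowest to its highest library, Acot1 16.7-fold and Fgf21 57.1-fold, and Hadha, Hadhb, Acadl and Acadm of the spiral rose with Cyp4a14 at smaller amplitudes, while the other 5 acyl-CoA dehydrogenases and later-step enzymes did not pass that test. WT 590 was the lowest of the 12 libraries for 21 of the 34 genes, and the share over all tested genes was not computed. Ppara itself did not follow this pattern.

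Each library held between 22129092 (KO 584) and 51082317 (KO 588) counted fragments, and the 34 genes together took 0.957% to 3.06% of them. Levels are given as CPM, read counts relative to library size, with library sizes scaled by the TMM method. A1cf (chr19:31868761-31949406, mm10), the targeted gene, stood at 50.9 ± 2.26 CPM among WT libraries and at 10.6 ± 1.55 CPM among KO libraries (SD, n = 6 each), with no overlap between the groups, and it fell by 2.26 on the log2 scale (SE 0.09, edgeR adjusted p = 1.1e-08). Hepatocyte markers were abundant in every library: 8 of them summed to between 99595 and 121405 CPM in WT and between 89859 and 113104 CPM in KO, and all 8 lay below 0 in KO against WT without passing the test in edgeR, DESeq2 or limma-voom (2 at an unadjusted p under 0.05 in each). All 8 Kupffer cell markers lay above 0, none past the threshold in edgeR or limma-voom, with a summed level of 93.6 to 158 CPM in WT and 99.5 to 345 CPM in KO (7 of the 8 at an unadjusted p under 0.05 in edgeR, and 3 called by DESeq2). Endothelial markers (7 above 0 of 7, Stab2 past the threshold) and stellate cell markers (7 of 7, Lrat and Pdgfrb past it) also lay above 0. Stab2 passed in 3, Lrat in 7 and Pdgfrb in 9 of 12 fits that left out 1 library, and none of them among libraries 573 to 602 (edgeR adjusted p = 0.11, 0.21 and 0.22). Their log2 differences there were 0.55, 0.59 and 0.36, beside 0.48, 0.68 and 0.43 in all libraries. Of 7 fat and muscle markers, Ckm, Acta1 and Ucp1 had no count in any library and Adipoq and Myh7 at most 5 and 2 counts. Cfd lay at 0.110 to 34.1 CPM (KO minus WT 2.36, edgeR adjusted p = 0.19), and Car3 at 165 to 1799.9 CPM (−0.05, edgeR adjusted p = 0.98), falling with Cyp4a14 in the slope fit described further on (slope −1.09, SE 0.29, edgeR adjusted p = 0.041). In bulk tissue, fewer cells of a type and less RNA per cell cannot be told apart, and the part of these shifts in the results below was not tested.

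In the comparison of KO with WT, the quasi-likelihood test of edgeR (adjusted after Benjamini and Hochberg over 13706 tested genes, threshold 0.05) called 523 genes, or 3.82% of them, and 0 of the 34 genes described here, all of which were tested. DESeq2 and limma-voom also called 0 of the 34. At an unadjusted p under 0.05 edgeR had 3 of the 34 (8.82%), DESeq2 5 and limma-voom 3, and for edgeR the share over all tested genes was 21.2%. The groups overlapped for each of the 34, and they did not for 3.30% of all tested genes. The smallest adjusted p was 0.14, for Acadsb. Of the 34 genes, 24 lay below 0 and 10 above, with a median log2 difference of −0.10, and over all tested genes 48.2% lay below 0 with a median of 0.01. As a description, that tilt differed between the number ranges, with no share over all tested genes computed in either. Among the libraries numbered 573 to 602 (3 WT, 5 KO) 14 of the 34 were lower in KO, with a median of 0.04. Among those numbered 776 to 780 (3 WT, 1 KO) 27 were, with a median of −0.14, which rests on 1 KO liver. No gene of the 34 had a difference between the number ranges past the threshold in an interaction test (edgeR adjusted p = 1 for each; 2, Acot3 and Acot4, were at an unadjusted p under 0.05, 0.022 and 0.018).

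The 95% interval of the difference lay within a 1.5-fold change either way for 21 of the 34 genes and within a 2-fold change for 26. The interval of Cpt1a ran from 0.811-fold to 1.24-fold and that of Acadm from 0.644-fold to 1.03-fold. For Acot1 it ran from 0.317-fold to 1.93-fold and for Fgf21 from 0.092-fold to 1.14-fold. The plot of KO minus WT differences shows the widest intervals for Fgf21, Pdk4 and Acot1, which also spread widely within a genotype.

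**Figure D1:**
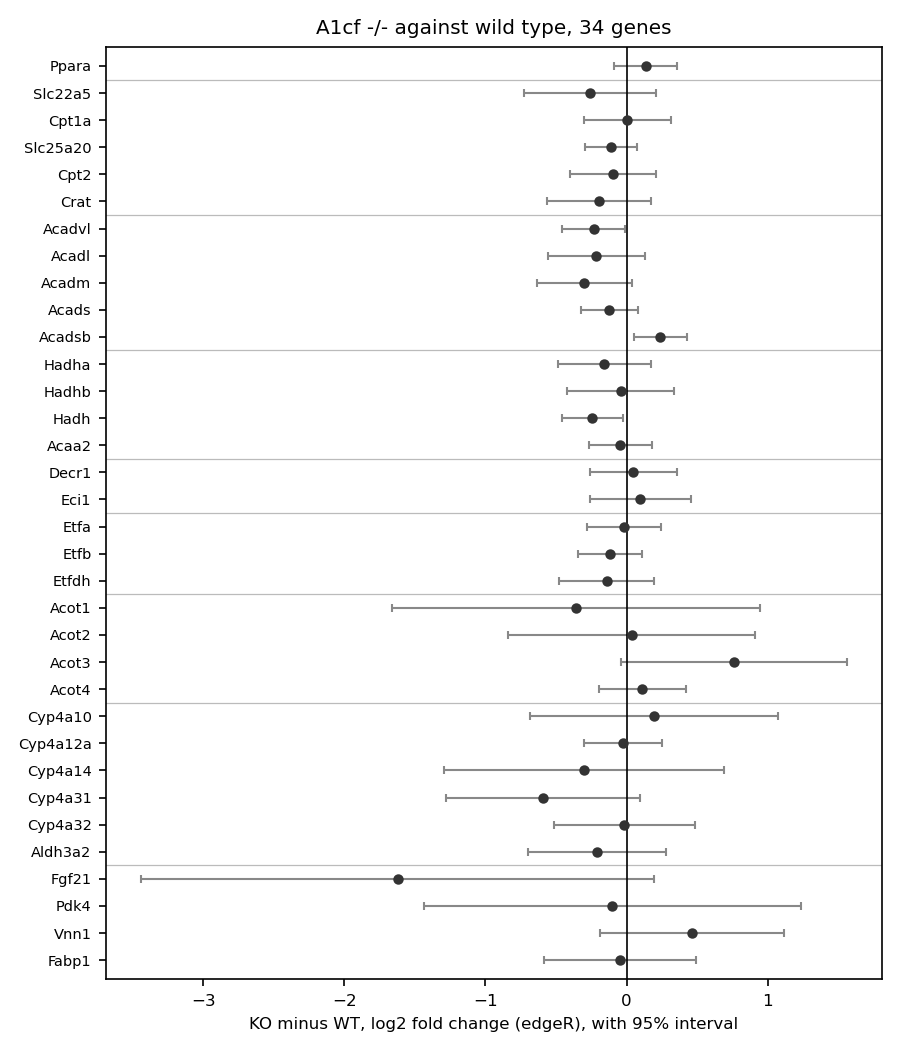
KO minus WT differences of the 34 genes (log2 fold change on the horizontal axis, from edgeR), with 95% intervals, 6 libraries per genotype, grouped by role from the regulator at the top to other PPARα targets at the bottom. Points lie between −1.62 (Fgf21) and 0.76 (Acot3), and no gene passed an adjusted p of 0.05.

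The levels of the 34 genes per kilobase of annotated exon, which allow genes to be compared, ran from 2.90 CPM per kb for Pdk4 to 7063 for Fabp1 as means over 12 libraries. Fabp1, the cytosolic carrier of fatty acids in hepatocytes, was above Cyp4a14 (2422) in 12 of 12 libraries. Cyp4a14 and Cyp4a10 (2082) were close, with Cyp4a14 higher in 9 of 12. Below them came Acaa2, the last thiolase of the spiral, at 682 CPM per kb, and then Cpt1a, the gate of carnitine-dependent entry, at 190. From Etfa (173) through Acadl (166) and Eci1 (166) the order was not fixed, since Etfa exceeded Acadl in 6 of 12 libraries and Acadl exceeded Eci1 in 5. The exon length is the union over all annotated transcripts, and which transcripts were used was not measured; the length of Hadha on this scale is 8730 bases.

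Ppara, the regulator (chr15:85734983-85802819), varied little. Its level was 73.9 to 104 CPM in WT (median 90.7) and 78.7 to 113 CPM in KO (median 100.5). The groups overlapped throughout and the difference was 0.14 on the log2 scale (SE 0.10, edgeR adjusted p = 0.49). Its spread between libraries was larger than that of 32.6% of all tested genes, and its range over the 12 libraries was 1.53-fold.

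Among the 5 genes of the carnitine shuttle, 4 lay below 0 and Cpt1a at 0.01, with none past the test. Cpt1a (chr19:3323301-3385732) makes acylcarnitines at the outer membrane and is the step that malonyl-CoA inhibits. It ranged from 656 to 952 CPM in WT (median 823) and from 590.0 to 1054 CPM in KO (median 809). KO livers held both the lowest and the highest value, and the fitted difference was 0.01 (SE 0.14, edgeR adjusted p = 0.99). Slc22a5, the plasma membrane carnitine transporter, showed the widest span of this group, 38.6 to 102 CPM or 2.64-fold. Cpt2, which frees the acyl-CoA inside the mitochondrion, went from 173 to 304 CPM. Slc25a20, the carnitine-acylcarnitine exchanger, spanned only 1.46-fold.

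Of the 5 acyl-CoA dehydrogenases, which open each turn of the spiral for a given chain length, 4 lay below 0 and 1 above, with none past the test. Acadvl, for very long chains (chr11:70010183-70015411), was at 233 to 309 CPM in WT (median 273) and 198 to 272 CPM in KO (median 228). The KO livers 588, 591 and 602 lay below every WT liver, and the other KO livers lay within the WT range. The difference was −0.23 (SE 0.10, unadjusted p = 0.041, edgeR adjusted p = 0.21). Acadm, for medium chains (chr3:153922357-153944632), was at 421 to 738 CPM in WT (median 671) and 388 to 603 CPM in KO (median 501). WT 590 and WT 601 sat among the KO values, and the difference was −0.30 (SE 0.16, edgeR adjusted p = 0.30). Acadsb, which acts on short branched chains from isoleucine, had the opposite sign: 94.6 to 121 CPM in WT (median 100.3) and 103 to 137 CPM in KO (median 123), a difference of 0.24 (SE 0.09, unadjusted p = 0.017, edgeR adjusted p = 0.14). Acadl and Acads, for long and short chains, lay at −0.21 and −0.12.

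All 4 genes of the later steps lay below 0, between −0.24 and −0.04, with none past the test. Hadha and Hadhb encode the α and β subunits of the trifunctional protein, which carries out the last 3 reactions on long chains. Hadha (chr5:30118304-30155162) was at 383 to 658 CPM in WT (median 614) and 398 to 633 CPM in KO (median 489). WT 590 and KO 588, 591 and 602 formed the low end in both genotypes, and the difference was −0.16 (SE 0.15, edgeR adjusted p = 0.59). Hadh, the dehydrogenase for shorter hydroxyacyl chains, was at 365 to 472 CPM in WT (median 430.3) and 312 to 404 CPM in KO (median 362), a difference of −0.24 (SE 0.10, unadjusted p = 0.031, edgeR adjusted p = 0.19).

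Hadha and Hadhb stand head to head on chromosome 5, and their levels had r = 0.95 over the 12 libraries, as a description of libraries that share depth and scaling. In the RefSeq promoter table (GRCm38.p6, 250 bases before to 50 bases after each start), the 2 starts are 273 bases apart and the windows share 228 bases. The Hadhb window is printed because the pair shares it and covaried, and it holds no match to the PPAR response element described further on. It covers chr5:30155003-30155302 on the plus strand, reads towards Hadhb, and ends 50 bases into that gene:
Hadhb: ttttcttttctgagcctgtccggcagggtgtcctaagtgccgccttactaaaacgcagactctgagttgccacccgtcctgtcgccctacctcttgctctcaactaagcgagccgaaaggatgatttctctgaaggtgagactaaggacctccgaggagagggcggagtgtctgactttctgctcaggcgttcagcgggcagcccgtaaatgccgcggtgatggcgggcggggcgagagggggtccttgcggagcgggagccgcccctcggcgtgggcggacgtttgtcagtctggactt

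The auxiliary enzymes Decr1 and Eci1, which rearrange the double bonds of unsaturated fatty acids, lay at 0.05 and 0.10. The 3 genes of electron transfer lay at −0.02 (Etfa), −0.12 (Etfb) and −0.14 (Etfdh). In WT 590, Decr1 (282 CPM) lay under the other WT livers, which held 438 to 483 CPM. In KO 602, Etfa (220 CPM) lay under the other KO livers, which held 315 to 350 CPM.

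The acyl-CoA thioesterases Acot1 (cytosol), Acot2 (mitochondrion), Acot3 and Acot4 (peroxisome) release free fatty acids from CoA and lie side by side on chromosome 12. Acot1 (chr12:84009502-84017670) ranged from 12.5 to 208 CPM in WT (median 172) and from 46.1 to 171 CPM in KO (median 106). WT 590 (12.5 CPM) and WT 601 (56.5 CPM) were low beside the other WT livers (169 to 208 CPM), and KO 588, 591 and 602 (46.1 to 69.3 CPM) were low beside the other KO livers (143 to 171 CPM). The genotype difference of −0.36 (SE 0.59, edgeR adjusted p = 0.78) was small against this spread. Acot2 shared the pattern at a lower level, 3.74 to 25.1 CPM. Acot3 differed from it: KO 584 was highest at 135 CPM, KO 780 was low at 25.7 CPM, and the genotype difference was 0.76 (SE 0.37, edgeR adjusted p = 0.26). In this family, 55.1% of the 50-base stretches of the Acot1 coding sequence and 45.2% of those of Acot2 recur exactly in another of the 4 genes, so some reads cannot be assigned to 1 of them.

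The CYP4A genes form a cluster on chromosome 4. Cyp4a14 (chr4:115486200-115496142) ranged from 1465 to 11167 CPM in WT (median 7252) and from 2512 to 9113 CPM in KO (median 5219), so that a single gene held 0.138% to 1.12% of all counted fragments. The lowest 5 libraries were WT 590, KO 588, KO 602, WT 601 and KO 591, drawn from both genotypes, and the difference was −0.30 (SE 0.46, edgeR adjusted p = 0.75). Cyp4a10 (chr4:115518264-115533649) ranged from 1007 to 7195 CPM in WT (median 4215) and from 2372 to 7158 CPM in KO (median 4871), with a difference of 0.19 (SE 0.41, edgeR adjusted p = 0.83). Its lowest library was again WT 590, and its highest were WT 777 and KO 780. Cyp4a31 and Cyp4a32 were far less abundant, at 30.4 to 126 CPM and 45.6 to 116 CPM. Cyp4a12a, known as the male-specific member of the family, stayed between 169 and 285 CPM. Aldh3a2, which oxidises the fatty aldehydes made by this pathway, was at 325 to 837 CPM.

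Cyp4a10, Cyp4a31 and Cyp4a32 are close copies, and their first 90 coding bases (GENCODE M21 transcripts) are printed to show how little separates them. Capitals mark bases that differ from Cyp4a10:
Cyp4a10: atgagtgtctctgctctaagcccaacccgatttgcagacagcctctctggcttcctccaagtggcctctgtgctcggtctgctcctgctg
Cyp4a32: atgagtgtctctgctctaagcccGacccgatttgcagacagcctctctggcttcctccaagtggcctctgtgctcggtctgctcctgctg
Cyp4a31: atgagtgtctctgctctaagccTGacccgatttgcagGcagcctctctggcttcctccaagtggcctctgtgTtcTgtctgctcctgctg
Cyp4a14: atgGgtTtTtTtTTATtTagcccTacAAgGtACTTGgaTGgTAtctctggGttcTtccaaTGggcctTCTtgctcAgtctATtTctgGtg
Over the whole coding sequence Cyp4a10 was 97.2% identical to Cyp4a32 and 96.6% to Cyp4a31, but 75.2% to Cyp4a14. Of the 50-base stretches of Cyp4a32, 46.8% recur in a relative, so the levels of Cyp4a31 and Cyp4a32 beside the much larger Cyp4a10 are uncertain. Cyp4a12a shares 54.9% of its stretches with Cyp4a12b and is uncertain for the same reason. Cyp4a14 shared no 50-base stretch with the other CYP4A genes compared, so its counts do not depend on how such reads were assigned among them.

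Of the other targets, Fgf21, the fasting hormone secreted by the liver (chr7:45613907-45615490), was at 0.44 to 25.1 CPM in WT (median 8.63) and 0.551 to 9.33 CPM in KO (median 2.12). The lowest library, WT 590, held 12 counts and the highest, WT 776, held 682. Its difference of −1.62 had an SE of 0.83 and did not pass (edgeR adjusted p = 0.29). The estimate was −0.55 among libraries 573 to 602 and ranged from −2.34 to −1.06 when each library was left out in turn. Pdk4, the kinase that shuts off pyruvate dehydrogenase in fasting, was at 3.92 to 24.6 CPM in WT (median 8.11) and 3.45 to 25.3 CPM in KO (median 5.45). One liver of each genotype, WT 776 and KO 780, stood at the top, and the difference was −0.10 (SE 0.61, edgeR adjusted p = 0.95). Vnn1, the pantetheinase, ranged over 53.7 to 209 CPM among WT livers (median 160) and over 152 to 343 CPM among KO livers (median 184), a difference of 0.47 (SE 0.30, edgeR adjusted p = 0.40). Fabp1 ranged from 1753 to 5438 CPM in WT (median 4337) and from 2371 to 5424 CPM in KO (median 3582), with a difference of −0.05.

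**Figure D2:**
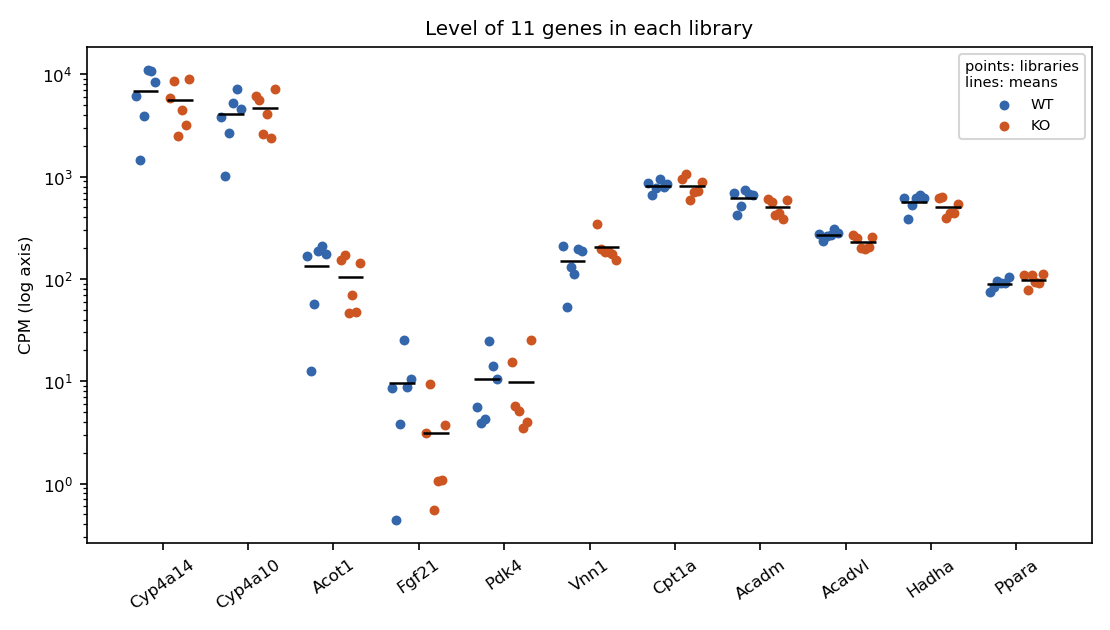
CPM of 11 of the genes in each library (points, log axis), with WT in blue, KO in orange and the group mean as a line. The 2 genotypes overlap for each gene, and the spread within a genotype is widest for Fgf21 and Acot1 and narrow for Ppara (73.9 to 113 CPM).

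The spread between livers was then described across the whole group. Of the 34 genes, 9 spanned at least 4-fold from lowest to highest library (the thioesterases Acot1, Acot2 and Acot3, Cyp4a10, Cyp4a14, Cyp4a31, Fgf21, Pdk4 and Vnn1), and 19 spanned less than 2-fold, among them the 9 acyl-CoA dehydrogenases and enzymes of the later steps. The same 9 had a standard deviation of log2 CPM above the 90th percentile of all tested genes. The median gene of the 34 stood at the 60.5th percentile. Over the 561 pairs of the 34 genes, the median correlation across libraries was 0.52, as a description.

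**Figure D3:**
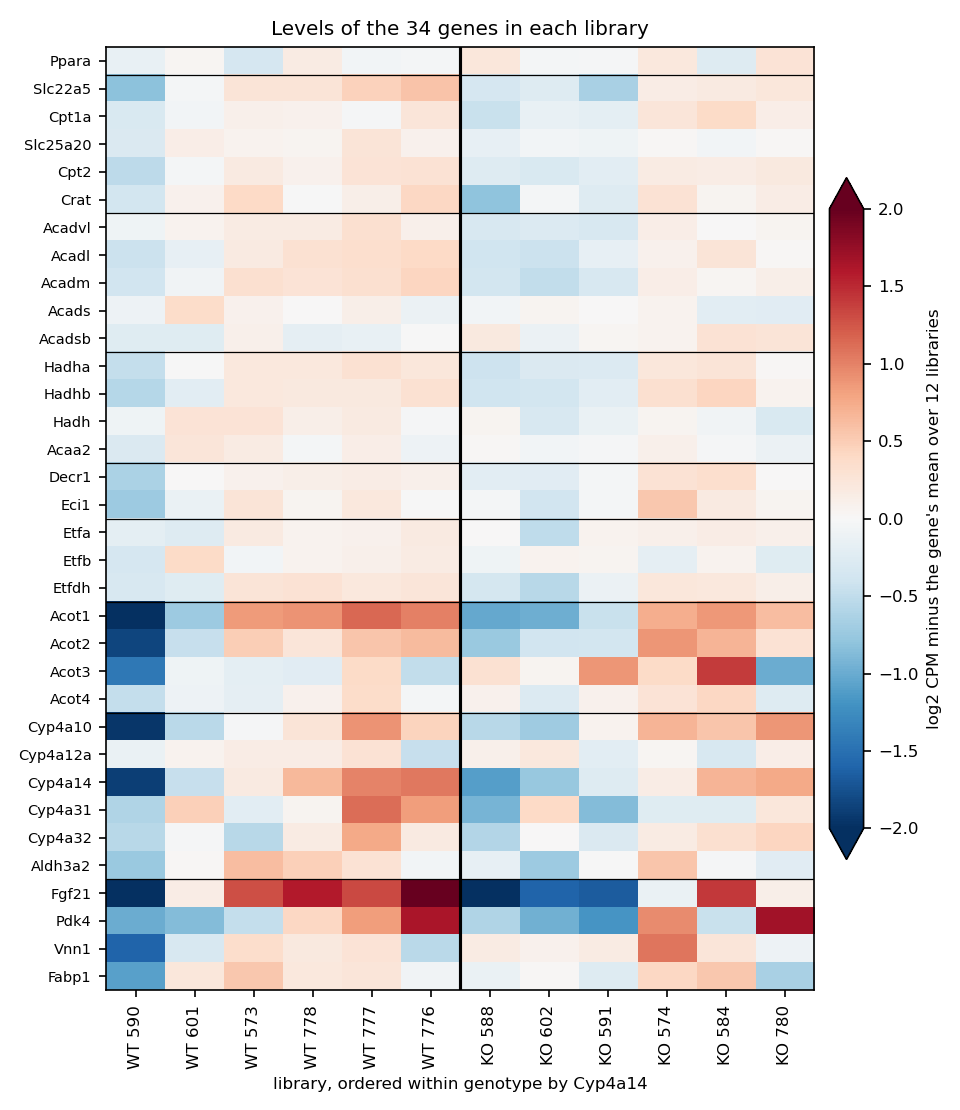
Log2 CPM of each of the 34 genes in each library minus the mean of that gene over 12 libraries (colour), libraries ordered by Cyp4a14 within WT (left) and KO (right). Blue columns on the left of each block, led by WT 590 and KO 588, hold low values of most genes, whereas Ppara, Acads and Hadh do not follow the order.

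Whether the group moves as 1 was asked with 2 anchors of different kinds, Cyp4a14 as the most abundant microsomal target and Hadha as a core enzyme of the spiral. Across all 12 libraries the 2 anchors were correlated, with Pearson r = 0.89 (permutation p = 0.00017) and Spearman rho = 0.87 (permutation p = 0.00048). Without WT 590 and KO 588, the libraries farthest from the median of Cyp4a14, r was 0.78. It was 0.90 among the 8 libraries numbered 573 to 602, and it was 0.97 within WT and 0.85 within KO (6 libraries each). Libraries 776 to 780 are too few for a value of their own. The relation was thus of similar size within each genotype. The same 5 libraries were lowest for both anchors and highest for a list of acute phase genes described further on. They come from both genotypes, and all 5 are numbered 573 to 602. The values of r, and the slopes below, can therefore rest on the difference between those 5 libraries and the other 7. Whether the anchors are related within the 7 was not tested.

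A slope fit in edgeR, with genotype as a term and adjustment over all tested genes, then gave the change of each gene per doubling of Cyp4a14. Of the other 33 genes, 16 rose with Cyp4a14 and none fell, where 3.76% of all tested genes rose. The median slope of the 33 was 0.27, beside 0.0036 over all tested genes. The steepest were Fgf21 (1.77, SE 0.21), Acot1 (1.29, SE 0.14), Pdk4 (0.92, SE 0.24), Cyp4a10 (0.87, SE 0.08) and Acot2 (0.80, SE 0.11), with edgeR adjusted p between 0.00013 and 0.036. A doubling of Cyp4a14 thus went with a 3.41-fold increase of Fgf21. Pdk4 passed in 5 of 12 fits that left out 1 library, and the other 4 in each of the 12. Of the 9 acyl-CoA dehydrogenases and later-step enzymes, 4 passed, with shallow slopes: Hadhb 0.33 (SE 0.06), Acadl 0.31 (SE 0.04), Acadm 0.28 (SE 0.05) and Hadha 0.27 (SE 0.05). The other 5 did not pass: Acadvl 0.14 (SE 0.04), Acadsb 0.08 (SE 0.05), Acaa2 0.04 (SE 0.06), Hadh 0.01 (SE 0.06) and Acads −0.04 (SE 0.05). In the carnitine shuttle, Slc22a5 (0.41, SE 0.06), Cpt2 (0.27, SE 0.04) and Cpt1a (0.21, SE 0.06) passed, Cpt1a in 7 of the 12 fits without 1 library, and Crat (0.25, SE 0.08) and Slc25a20 (0.11, SE 0.04) did not.

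With Hadha as the measure, 16 of the other 33 genes rose and none fell, where 2.28% of all tested genes rose. Leaving out each library in turn left 12 to 16 genes that rose with Cyp4a14 and 13 to 19 that rose with Hadha. Among only the 8 libraries numbered 573 to 602 the counts were 4, where 0.161% of all tested genes rose with Cyp4a14, and 7, where 0.467% rose with Hadha. The fits on Cyp4a14 and Hadha share the same 12 libraries, so their counts are not independent of each other.

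**Figure D4:**
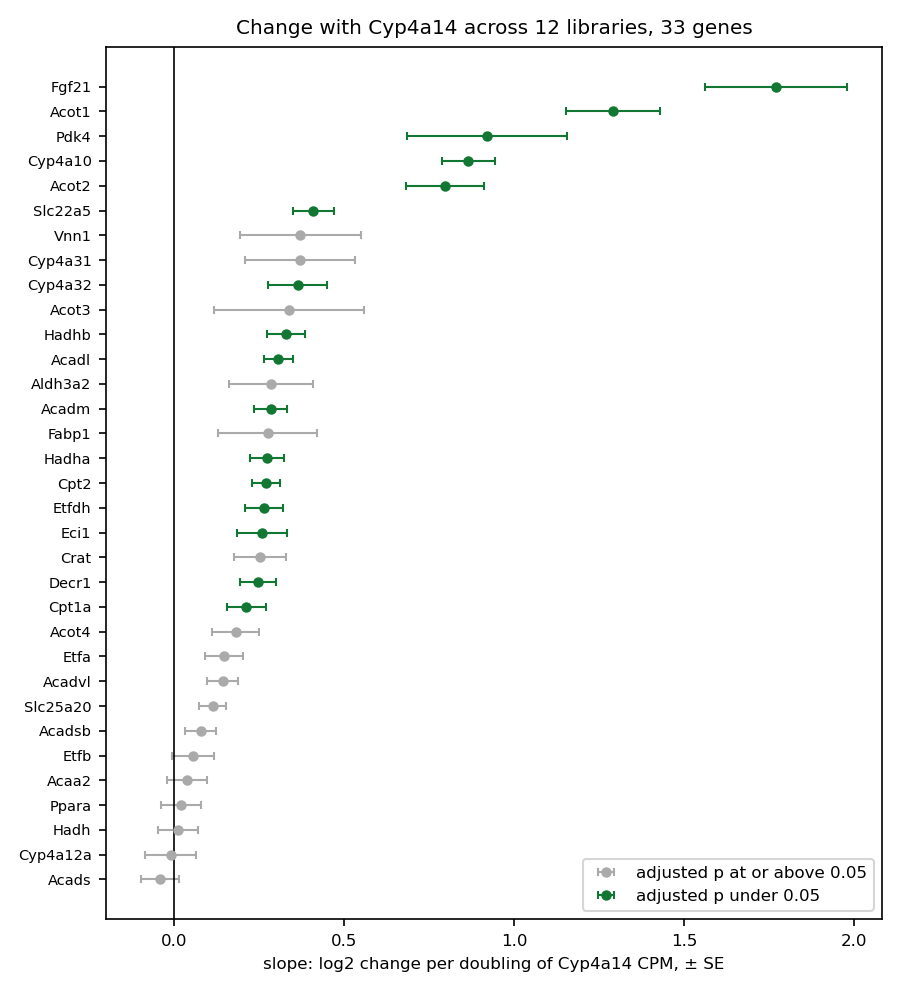
Slope of each of the other 33 genes on Cyp4a14 (log2 change per doubling of Cyp4a14 CPM, horizontal axis, ± SE) across 12 libraries with genotype as a term. Green points passed an adjusted p of 0.05 in edgeR, 16 genes in all, from Cpt1a (0.21) to Fgf21 (1.77), and grey points did not.

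Leaving the anchors aside, 11 genes rose with Cyp4a14, rose with Hadha and fell with a list of acute phase genes described further on: Slc22a5, Cpt2, Acadl, Acadm, Hadhb, Decr1, Eci1, Etfdh, Acot1, Acot2 and Cyp4a10. They include the carnitine transporter, an inner membrane transferase, 2 dehydrogenases and the electron transfer flavoprotein's own oxidoreductase. Of the 11, Slc22a5 and Decr1 fell with the acute phase list in only 4 of 12 fits without 1 library, and Eci1 rose with Cyp4a14 in only 4 of 12. Over all tested genes 3.76%, 2.28% and 3.56% passed in the single fits, and the share that passed in all 3 was not computed. The 3 measures were strongly correlated (Cyp4a14 with Hadha r = 0.89, the acute phase list with each −0.84 and −0.82). Passing in all 3 is therefore not 3 separate results. In contrast, 13 genes passed in none of these 3 fits, namely Ppara, Slc25a20, Acads, Acadsb, Hadh, Acaa2, Etfb, Acot3, Acot4, Cyp4a12a, Cyp4a31, Vnn1 and Fabp1. Acadl and Acadm, for long and medium chains, are in the first set and Acads, for short chains, is in the second, with no test of the difference between them. A slope that misses the threshold does not show that a gene is independent of Cyp4a14.

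For the genes whose levels were given above, correlations with Cyp4a14 were also computed. Acot1 had r = 0.96 (permutation p = 1e-05, the smallest that 100000 resamples can give) and rho = 0.92 (permutation p = 0.00011), with r = 0.92 without WT 590 and KO 588 and 0.97 among libraries 573 to 602. Fgf21 had r = 0.89 (permutation p = 1e-04) and rho = 0.84 (permutation p = 0.0012), with r = 0.81 without those 2 libraries and 0.88 among libraries 573 to 602. Ppara had r = 0.04 (permutation p = 0.89) and rho = −0.11 (permutation p = 0.73), with r = 0.05 without those 2 libraries and −0.24 among libraries 573 to 602. No relation of Ppara with Cyp4a14 was detectable at this number of libraries. Vnn1 depended on the extremes: r = 0.47 (permutation p = 0.13) and rho = 0.23 (permutation p = 0.47) in all, −0.10 without WT 590 and KO 588, and 0.77 among libraries 573 to 602. Of the 33 genes, 12 had r of at least 0.8 with Cyp4a14, beside 1.55% of all tested genes, and 15 had it with Hadha, beside 1.89%. At an unadjusted permutation p under 0.05, 22 of 33 relations with Cyp4a14 and 23 of 33 with Hadha passed, beside 21.9% and 20.7% of all tested genes.

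The PPARα response element is a direct repeat of the half-site AGGTCA spaced by 1 base, and the promoters of the 34 genes were searched for it (AGGTCANAGGTCA, both strands, at most 2 mismatches). RefSeq promoters were found for 26 of the 34 genes, and the other 8, among them Cyp4a14, Cyp4a10 and Vnn1, were not searched. A match was present in 4 of these 26 and in 4.40% of 27025 genes with a promoter, and within 1 mismatch it was in Fabp1 and in 0.644% of all. The 4 windows are printed because these are the members whose start region holds such letters, with the matched bases in capitals:
Fabp1: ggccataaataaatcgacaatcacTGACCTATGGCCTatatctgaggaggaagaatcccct
Acot4: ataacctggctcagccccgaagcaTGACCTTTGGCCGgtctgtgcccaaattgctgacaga
Etfa: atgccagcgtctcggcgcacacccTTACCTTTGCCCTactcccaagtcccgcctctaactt
Slc25a20: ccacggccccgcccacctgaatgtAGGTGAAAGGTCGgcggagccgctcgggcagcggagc
They lie at chr6:71199788-71199848 (Fabp1, plus strand), chr12:84038342-84038402 (Acot4, plus strand), chr9:55512284-55512344 (Etfa, minus strand) and chr9:108662118-108662178 (Slc25a20, plus strand), all GRCm38.p6. The first 3 matches are upstream of the start on the opposite strand and the last is downstream on the strand of the gene. None of these 4 genes is among the 16 that rose with Cyp4a14, but the 16 include genes that were not searched, such as Cyp4a10. A match is a description of letters, and no match in this 300-base window says nothing of elements elsewhere.

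Other genes of the pathway, from lists chosen for it, were set beside the 34 in the comparison of genotypes. Of 21 tested other β-oxidation enzymes 0 passed in edgeR, DESeq2 or limma-voom (4, 5 and 4 at an unadjusted p under 0.05), with 17 below 0 and a median of −0.10. The smallest p-values were those of Hsd17b4, the peroxisomal multifunctional enzyme (−0.41, SE 0.15, adjusted p = 0.13), and Ivd (0.26, SE 0.10, adjusted p = 0.15). Of 18 tested acyl-CoA synthetases and genes of fatty acid entry 0 passed in edgeR or limma-voom and 2 in DESeq2 (3 in each at an unadjusted p under 0.05), with a median of −0.06. Here the smallest p-values were those of Acsl5 (−0.40, SE 0.12, adjusted p = 0.088) and Acsl1, the main long-chain synthetase of liver (−0.43, SE 0.15, adjusted p = 0.13). Of 16 other PPARα target genes 0 passed in edgeR or limma-voom and 1 in DESeq2 (2 in each at an unadjusted p under 0.05), with a median of −0.04. Acot8 (−0.44, SE 0.12, adjusted p = 0.060) and Txnip (−1.03, SE 0.42, adjusted p = 0.19) had the smallest p-values.

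The ketogenesis list and the list of partners of PPARα held 2 calls each. Over all tested genes, 3.82% were called and 3.30% had groups that did not overlap. Among 7 ketogenesis genes, Bdh2, a cytosolic hydroxybutyrate dehydrogenase, rose from 8.39 ± 1.23 CPM to 16.1 ± 4.75 CPM (SD, n = 6 each), a log2 difference of 0.95 (SE 0.17, edgeR adjusted p = 0.0079), with every KO liver above every WT liver. Oxct1, the enzyme of ketone body use that is scarce in hepatocytes, rose from 2.40 ± 0.74 CPM to 4.29 ± 0.78 CPM (0.84, SE 0.20, edgeR adjusted p = 0.036). The list did not move in 1 direction, with 4 of the 7 above 0 and 3 below. Those 3 were Bdh1 (−0.45, SE 0.20), Acat1 (−0.30, SE 0.18) and Slc16a1 (−0.05, SE 0.18), with edgeR adjusted p of 0.22, 0.35 and 0.91. Among 23 regulators and partners of PPARα, Fgfr1, a receptor for FGF21, rose from 17.7 ± 5.96 CPM to 35.7 ± 6.14 CPM (1.01, SE 0.19, edgeR adjusted p = 0.010). Rxra, the partner with which PPARα binds DNA, fell by 0.31 on the log2 scale (SE 0.08, edgeR adjusted p = 0.046), from 532 ± 41.5 CPM to 429 ± 14.7 CPM, with no overlap between the groups. Bdh2 and Fgfr1 passed in each of 12 fits that left out 1 library, but not among libraries 573 to 602 (edgeR adjusted p = 0.12 and 0.13). Their log2 differences there were 0.86 and 0.86, and only 57 genes of the whole table were called in that smaller set. Oxct1 passed in 4 of the 12 and Rxra in 1 (without WT 776), with edgeR adjusted p up to 0.081 and 0.099 in the others.

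Across livers, the same lists were set against Cyp4a14 in the slope fit, with no test between lists. Of the 16 other PPARα targets, 7 rose with it and none fell: Cidec (slope 1.33, SE 0.18), G0s2 (1.28, SE 0.20) and Ehhadh (1.24, SE 0.13) had slopes near that of Acot1 (1.29), followed by Plin2 (0.65, SE 0.13), Retsat (0.63, SE 0.07), Mgll (0.35, SE 0.08) and Tmem135 (0.25, SE 0.04). Cidec and Plin2 coat lipid droplets, G0s2 inhibits their main lipase, and Ehhadh is the peroxisomal bifunctional enzyme. Of the 21 other β-oxidation enzymes 4 rose (Ehhadh, Acaa1b, Hsd17b4 and Acad11), and of the 7 ketogenesis genes 1 rose, Acat1 (0.30, SE 0.06). Of the 18 synthetases and entry genes 1 rose, Acacb (0.51, SE 0.09), and 3 fell: Acsm1 (−0.38, SE 0.07), Acsl3 (−0.36, SE 0.08) and Slc27a5 (−0.24, SE 0.05). Of the 23 regulators 0 rose and 1 fell, Fgfr1 (−0.29, SE 0.07), where 5.42% of all tested genes fell. Ehhadh is in both the target and the β-oxidation list.

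Among genes other than the 34, those with the pattern most like Cyp4a14 were named by Pearson r over 12 libraries among 11919 tested genes of at least 1 CPM, as a description. Retsat and Cidec are also in the list of other PPARα targets. The 5 highest were Ephx2, the soluble epoxide hydrolase (0.97), Psmd9 (0.93), Retsat, the retinol saturase (0.93), Cidec (0.93) and Arl4a (0.93). The 5 lowest were AI182371 (−0.96), Il18 (−0.96), Adamts7 (−0.96), Sec61a1, a channel of the endoplasmic reticulum (−0.94), and Cd302 (−0.94).

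Other programmes that differ between livers were set beside the 2 anchors, as 16 relations of 8 lists with Cyp4a14 and Hadha. The acute phase genes, made by hepatocytes in inflammation, passed a Benjamini-Hochberg adjusted p of 0.05 over the 16 with both anchors, and no other list did without adjustment for genotype in all 12 TMM-scaled libraries. Between genotypes 0 of the 16 passed in edgeR, DESeq2 or limma-voom (1 in each at an unadjusted p under 0.05), with 15 above 0. In edgeR that 1 was Lbp, the only gene of the list below 0 (−0.30, SE 0.10, edgeR unadjusted p = 0.011). The mean log2 CPM of the list ran from 6.61 (WT 573) to 10.6 (WT 590) in WT and from 7.14 (KO 780) to 11.4 (KO 602) in KO. Saa1, a serum amyloid, stood at 20.8 to 83.8 CPM in 7 libraries and at 1840.4 to 17489 CPM in WT 590, WT 601, KO 588, KO 591 and KO 602. Those 5 were also the 5 lowest libraries for Cyp4a14 (1465 to 4494 CPM, beside 5945 to 11167 CPM) and for Hadha (383 to 530 CPM, beside 537 to 658 CPM).

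The acute phase list had r = −0.84 with Cyp4a14 (permutation p = 0.00077, adjusted p = 0.012) and rho = −0.71 (permutation p = 0.013). Without WT 590 and KO 588, r was −0.83, and among libraries 573 to 602 it was −0.77 (adjusted p = 0.15). With Hadha r was −0.82 (permutation p = 0.0020, adjusted p = 0.016) and rho was −0.66 (permutation p = 0.022), with r = −0.80 without those 2 libraries and −0.79 (adjusted p = 0.15) among libraries 573 to 602. Within the 7 libraries of low acute phase level the relation was not detectable (Cyp4a14 r = 0.22, exact permutation p = 0.57, and Hadha r = −0.06, exact permutation p = 0.95). So few libraries cannot exclude a relation, and no value was computed within the other 5. The pooled values can rest on the difference between those 7 and the other 5, but this was not tested.

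**Figure D5:**
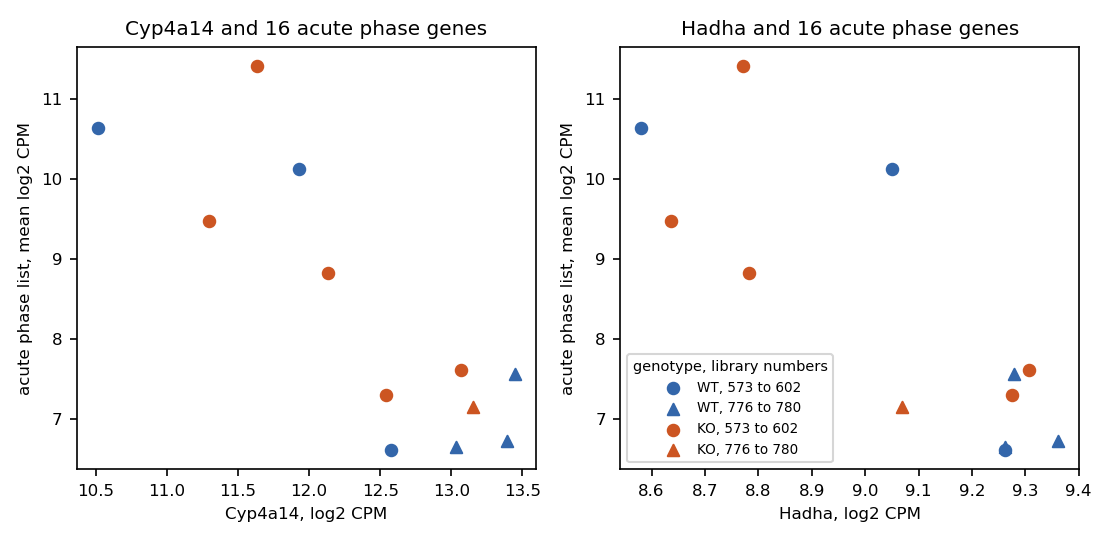
Mean log2 CPM of 16 acute phase genes (vertical axis) against log2 CPM of Cyp4a14 (left) and Hadha (right), 1 point per library, coloured by genotype and shaped by library number range. The 5 libraries with acute phase means of at least 8.83, from both genotypes, lie to the left of the 7 with means up to 7.61.

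In the slope fit on the acute phase list, 15 of the 34 genes fell with it and none rose, where 3.56% of all tested genes fell. The median slope was −0.13 per unit of the list's mean. Acot1 fell by 0.59 (SE 0.11) on the log2 scale per unit, Cyp4a14 by 0.43 (SE 0.09), Cyp4a10 by 0.41 (SE 0.07), Hadhb by 0.17 (SE 0.03) and Etfdh by 0.17 (SE 0.02), with edgeR adjusted p from 0.00064 to 0.016. With the list's mean as a covariate in the genotype comparison, 1 gene of the 34 passed, where 884 of all 13706 tested genes did. That gene, Acadsb, rose in KO by 0.27 (SE 0.07, edgeR adjusted p = 0.040, unadjusted p = 0.0021). The median of the 34 was then 0.0035, with 17 below 0 and 17 above. At an unadjusted p under 0.05 edgeR then had 7 of the 34, beside 3 without the covariate. The share over all tested genes at that level was not computed with the covariate.

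The fasting list followed Cyp4a14 with r = 0.66 (permutation p = 0.019, adjusted p = 0.062; rho = 0.70, permutation p = 0.014), and among libraries 573 to 602 with r = 0.16. The fed lipogenic list ran the other way, with r = −0.69 (permutation p = 0.014, adjusted p = 0.059; rho = −0.74, permutation p = 0.0079) and −0.87 among libraries 573 to 602. Without WT 590 and KO 588 these were 0.81 and −0.53. Kupffer markers had r = −0.68 with Hadha (permutation p = 0.015, adjusted p = 0.059; rho = −0.60, permutation p = 0.042), with r = −0.76 without those 2 libraries and −0.67 among libraries 573 to 602. Hepatocyte markers had r = 0.56 with Cyp4a14 (permutation p = 0.055, adjusted p = 0.15; rho = 0.54, permutation p = 0.074), with r = 0.76 without those 2 libraries and −0.16 among libraries 573 to 602. The other 10 of the 16 relations had adjusted p between 0.18 and 0.97. These lists passed in some other settings, of which several follow. With Cyp4a14, fasting and hepatocyte passed with library totals (adjusted p = 0.044 each) and without WT 590 and KO 588 (adjusted p = 0.045 each). Fasting also passed without the 2 deepest libraries (adjusted p = 0.021), and fed lipogenic without WT 777 (adjusted p = 0.018). As deviations from genotype means, fed lipogenic passed with Cyp4a14 (adjusted p = 0.012) and with Hadha (adjusted p = 0.038). With Hadha, Kupffer passed without WT 590 (adjusted p = 0.027) and without WT 590 and KO 588 (adjusted p = 0.045). Among libraries 573 to 602 no list passed (smallest adjusted p = 0.087). Between genotypes, 1 of the 9 tested fed lipogenic genes passed in edgeR, where 3.82% of all tested genes did. That gene, Me1, lay at −0.62 (SE 0.16, edgeR adjusted p = 0.043) and passed in 2 of 12 fits without 1 library. The labels give neither the hour of collection nor the feeding state, and their part in the differences between livers was not tested.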

How the data were processed

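Per the file headers, the authors made the deposited counts with featureCounts (version 1.5.0-p2), assigning read pairs to exons of GENCODE M8 by gene name, with no strand or multi-mapping option set. STAR, DESeq2 and mm10 are listed in the submitters' processing notes. The deposited table also gave the exonic length per gene, used only for levels per kb. No source says that libraries of a genotype came from separate litters or cages; p-values measure the spread between these 12 libraries.

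The analysis used R 4.3.3 and edgeR 4.0.16 (filterByExpr with a minimum count of 10, TMM, robust quasi-likelihood fit, genotype as the term), and DESeq2 1.42.0 and limma-voom (limma 3.58.1) as alternatives. SE is the log2 difference over the square root of F. Log2 CPM used a prior count of 2, and permutation tests were two-sided with 100000 resamples (SciPy 1.17.1). The fits were checked on simulated data.

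Members and lists were chosen with earlier results of these data known. Values by library are given by rule for 11 members and any that passed; other members were chosen after their values were seen. From each list of other genes of the pathway, up to 3 genes past the threshold, or else the 2 of smallest p, are named. For ketogenesis those below 0 are named too. Genes of the other lists were not named by this rule. The slope fits, acute phase covariate, interaction and within-range values were added after seeing the data. Members' correlations were planned with adjustment over the members and are given unadjusted. Some genes of the ketogenesis and target lists are not reported here.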

Additional observations from a re-analysis of the deposited data

Results flagged for a closer look

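Among 68 groups of 6 libraries (34 genes in each genotype), 4 had a library whose gap to its nearest neighbour, as a share of the group's range, exceeded Dixon's 95% critical value. Chance gives about 1 in 20 such groups. Slc25a20 was at 155 CPM in WT 590, below 197 to 226 CPM in the other WT libraries. Decr1 was at 282 CPM in the same library, below 438 to 483 CPM. Etfa was at 220 CPM in KO 602, below 315 to 350 CPM in the other KO libraries. Vnn1 was at 343 CPM in KO 574, above 152 to 194 CPM. WT 590 and KO 602 also had the highest acute phase mean of their genotype (10.6 and 11.4 log2 CPM), and its part in these values was not tested.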

How the results depend on the processing

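Between genotypes, 0 of the 34 genes passed in each of the 9 planned settings and in each of 12 fits without 1 library, and 1 passed with the acute phase covariate. The number of genes called over the whole table moved more: 523 became 1175 with DESeq2, 884 with the acute phase covariate, 206 without the 2 deepest libraries and 57 in libraries 573 to 602, and ranged from 266 (without WT 777) to 638 (without WT 590). The median log2 difference of −0.10 ranged from −0.18 to −0.04 without 1 library and from −0.11 to 0.04 otherwise. Acot1, Cyp4a14 and Pdk4 turned to 0.11, 0.23 and 0.56 with the number range as a covariate, 0.30, 0.37 and 0.54 in libraries 573 to 602, and 0.17, 0.027 and 0.071 with the acute phase covariate, and Cpt1a to −0.0042 with no filter. Without 1 library Cpt1a ranged from −0.079 to 0.085, Cyp4a10 from −0.0086 to 0.43 and Pdk4 from −0.64 to 0.34. Of the 34 genes, 18 kept their sign in every setting.

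Genes with a permutation p under 0.05 for Cyp4a14 went from 22 to 14 without WT 590 and KO 588, a setting in which the share over all tested genes was not computed. In libraries 573 to 602, 4 genes rose with Cyp4a14, 7 with Hadha, and 8 fell with the acute phase list. Over all tested genes 0.161%, 0.467% and 1.12% did so in those libraries. There r with Cyp4a14 was −0.24 for Ppara and −0.16 for hepatocyte markers. Without WT 590 and KO 588, r of Vnn1 with Cyp4a14 was −0.10. Ppara with Hadha turned to 0.078 with library totals and 0.21 without the 2 deepest libraries. Endothelial markers with Hadha turned from −0.014 to 0.20 with library totals, 0.19 as deviations from genotype means, 0.12 without the 2 deepest libraries and 0.12 in libraries 573 to 602. Without 1 library, r ranged from −0.079 to 0.36 for Acadsb with Hadha, −0.0013 to 0.31 for Hadh with Cyp4a14, −0.17 to 0.21 for Ppara with Cyp4a14, −0.32 to 0.047 for Ppara with Hadha, −0.098 to 0.63 for Vnn1 with Cyp4a14, and for endothelial markers −0.048 to 0.56 with Cyp4a14 and −0.23 to 0.29 with Hadha. The causes were not tested. No paired analysis was possible because the groups share no library number. Fgf21, at 12 to 682 counts, had the fewest counts of the 34 genes.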
